A study of Mus musculus with 28 samples.

Results

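The mutation effect in the adult heart was set against the mutation effect in the adult cortex of mice at postnatal day 75. The contrast was mutant heart minus control heart, minus the same difference in cortex, and it used 16 of the 28 libraries of the series. These were 3 control and 5 mutant libraries from heart and 3 control and 5 mutant libraries from cortex. Each library held 3′-end mRNA tags, counted per gene, from the tissue of 1 mouse of the C57BL/6J strain, extracted with TRIzol. The mutants carried the missense change Y334C in Sepsecs together with Gpx4 U/C, a genotype with a selenocysteine (U) and a cysteine (C) form of Gpx4. The controls were labelled Gpx4 WT, and their Sepsecs genotype is given only as control. No label ties a heart to a cortex of the same mouse, and the labels do not say whether both tissues came from the same mice.

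SEPSECS, the protein of Sepsecs, completes the synthesis of selenocysteine on its transfer RNA, and selenocysteine is the catalytic residue of glutathione peroxidases, thioredoxin reductases and other selenoproteins. GPX4 reduces lipid peroxides and restrains ferroptosis, and its cysteine form needs no selenocysteine. When selenocysteine is short, some selenoprotein mRNAs are degraded while others are spared, and oxidant stress is known to activate the transcription factor NRF2, whose targets make glutathione and detoxify electrophiles. In brain, microglia and astrocytes respond to injury with complement, lysosomal and interferon-stimulated genes.

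The libraries held 2997738 to 8779631 counts each. Cardiomyocyte markers summed to 115759 to 246199 CPM (tag counts relative to library size, scaled with the trimmed mean of M values, TMM) in heart and to 491 to 1411 CPM in cortex, and excitatory neuron markers to 5324 to 9499 CPM in cortex and 198 to 363 CPM in heart. Some libraries stood apart. Heart control 1 had 40.7% mitochondrial counts, a TMM factor of 0.474 and the highest summed macrophage marker level in heart, 1688 CPM against 543 to 1264 CPM in the others. The transcript Ccdc36 exceeded 100 CPM in 5 libraries (cortex control 2, cortex mutant 2, heart controls 1 and 2, heart mutant 2). Cortex mutants 4 and 5 had 1771 and 1093 CPM of choroid plexus markers against 177 to 329 CPM in the other cortex libraries, and cortex mutant 5 also had 42.3 CPM of the cardiomyocyte gene Myh6 against 0.489 to 4.63 CPM. Replicate 1 of each group was female by Xist level and all others were male. In these bulk samples, fewer cells of a type and less RNA per cell cannot be told apart.

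The 2 tissues shared few single-gene effects, and no gene passed the test for a difference between them. Of 14814 genes tested, 42 passed at an adjusted p of 0.05 in heart (0.284%), 21 higher and 21 lower (0.142% each). In cortex 5 passed (0.0338%), 4 higher (0.027%) and 1 lower (0.00675%). The mean of both tissue effects passed for 10 genes (0.0675%). The difference of effects gave 0 genes in edgeR (0%), with 945 genes at an unadjusted p under 0.05 (6.38%). DESeq2 called 58 for it and limma-voom 2. Among the 12087 genes expressed in both tissues (a mean of at least 1 CPM in each), 753 had an unadjusted p under 0.05 for the difference (6.23%), 201 with the heart effect higher (1.66%) and 552 with it lower (4.57%). Of the 12087 genes, 4% were higher and 7.66% lower at that level in heart, and 2.35% were higher and 0.96% lower in cortex. A further 955 genes were expressed in heart only and 1726 in cortex only, and these were tested but entered no class. One gene was called in both tissues, the predicted gene Gm34302, named here after its values were seen, with log2 fold changes of -2.19 in heart and -4.08 in cortex. Its mean was under 1 CPM in at least 1 tissue, so it entered no class. Of the 42 genes called in heart, 33 had the same sign in cortex, but only 7 of these had an unadjusted p under 0.05 there. For 38 of the 42 the difference had an unadjusted p under 0.05, and 33 of these had no cortex effect at that level. An effect counted as shared when the mean of both tissue effects passed and each tissue moved the same way at an unadjusted p under 0.05: 4 genes met this (0.0331%). The opposite, heart-limited and cortex-limited classes each required the difference to pass, and edgeR placed 0 genes in them, whereas DESeq2 placed 23 genes in the shared, 21 in the opposite, 23 in the heart-limited and 8 in the cortex-limited class.

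These counts rest on few libraries. With each tissue fitted alone, 2 genes passed in heart and 0 in cortex. With the replicate number as a block, 16 passed in heart, 0 in cortex and 0 as shared. Mutants 4 and 5 of each tissue have no control of their number, so this block leaves them out of the effects. Without 1 library, the heart count of 42 became 202 (heart control 3), 26 (cortex mutant 1), 24 (cortex control 3), 22 (cortex mutant 5), 20 (heart mutant 1), 16 (cortex control 1, cortex mutants 3 and 4, heart control 1) or 14 (heart mutants 3 and 4). The cortex count of 5 became 0 without any 1 of the 3 cortex controls or without cortex mutant 4 or 5, 13 without cortex mutant 2, 9 without cortex mutant 1, 3 without cortex mutant 3 and 2 without heart mutant 1. The shared count of 4 became 1 without cortex control 1, 2 without cortex control 3, cortex mutant 4, cortex mutant 5 or heart control 1, 7 without heart mutant 5, 8 without heart control 3 and 9 without heart mutant 2. Leaving out heart mutant 4 gave 1 gene for the difference, Sez6l2, which was then heart-limited.

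**Figure D1:**
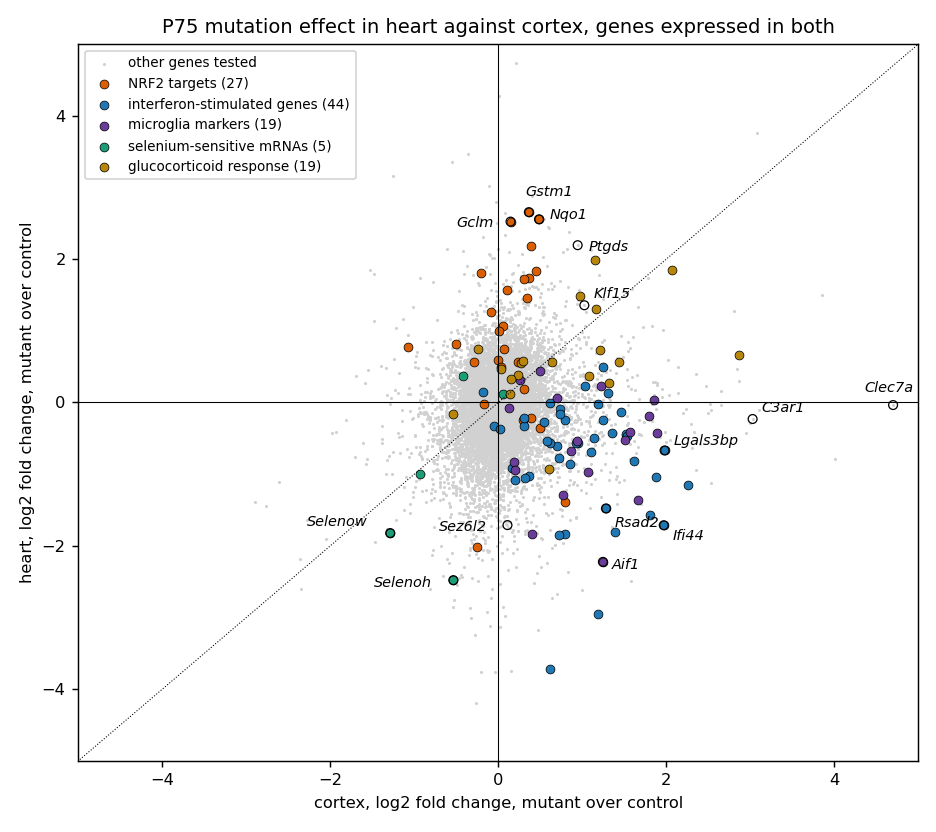
Each point is a gene expressed in both tissues, with its log2 fold change (mutant over control) in cortex on the x axis and in heart on the y axis, and 5 gene lists in colour. Of 27 NRF2 targets, 21 were higher and 6 lower in heart, with a median of 0.14 in cortex. Most interferon-stimulated and microglia genes lie to the lower right, while 4 of 44 and 5 of 19 were higher in heart. The dotted diagonal marks equal effects. Of the 12087 genes, 3 fall outside the axes.

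Ptgds and Klf15 rose over both tissues taken as a mean, and the single-tissue test passed for Ptgds in heart. Ptgds, the lipocalin-type prostaglandin D synthase (chr2:25466709-25470046, build GRCm38), stood at 490, 498 and 479 CPM in control cortex and at 774, 737, 1206, 1006 and 976 CPM in mutant cortex. In heart it stood at 356, 248 and 347 CPM in controls and at 1391, 2085, 1412, 1464 and 896 CPM in mutants. All mutants lay above all controls in each tissue. The log2 fold change was 2.19 ± 0.29 (SE) in heart (adjusted p = 0.00184) and 0.94 ± 0.27 in cortex (adjusted p = 0.659), and the mean effect passed with an adjusted p of 0.0015. The heart effect was larger by 1.25 (95% interval 0.47 to 2.03), with an adjusted p of 0.457 for that difference. Klf15, a transcription factor induced by glucocorticoids (chr6:90462576-90475238), stood at 9.83, 8.8 and 11.8 CPM in control cortex and at 25.6, 16, 20.6, 22.7 and 18.8 CPM in mutant cortex. In heart it stood at 17.9, 44.2 and 37.1 CPM in controls and at 105, 100, 77.6, 90.9 and 51.1 CPM in mutants. Again no mutant overlapped a control in either tissue. Its log2 fold changes of 1.36 ± 0.29 in heart and 1.02 ± 0.30 in cortex differed by 0.33 (95% interval -0.52 to 1.19), and the mean effect had an adjusted p of 0.0431, which lay between 2.76e-05 and 0.246 over the alternatives.

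Selenow and Selenoh, which encode small redox selenoproteins, fell over both tissues taken as a mean, and each also passed in heart. Selenow (chr7:15917208-15922402) stood at 239, 131 and 297 CPM in control cortex and at 49.3, 74.1, 111, 109 and 112 CPM in mutant cortex. In heart it stood at 110, 47.5 and 79.4 CPM in controls and at 29.1, 13.2, 15, 21.7 and 31.9 CPM in mutants. Mutants lay below all controls in both tissues. The log2 fold changes were -1.82 ± 0.36 in heart (adjusted p = 0.0422) and -1.29 ± 0.35 in cortex, with an adjusted p of 0.0192 for their mean and an interval of -1.62 to 0.55 for their difference. The heart effect of Selenow passed in 15 of 30 alternatives, with an adjusted p of up to 0.259. Selenoh (chr2:84669215-84670770) was lower in heart by a larger margin. Control hearts had 33.9, 22 and 21.9 CPM of Selenoh and mutant hearts 5.03, 4.61, 3.37, 4.5 and 5.52 CPM. Control cortices had 15.9, 12 and 17.6 CPM and mutant cortices 11.1, 8.61, 12.1, 10.5 and 10.1 CPM, so the cortex groups overlapped through cortex control 2 and cortex mutant 3. The heart effect of Selenoh, -2.48 ± 0.24 (adjusted p = 0.000104), had the smallest p of all genes in heart, and it kept an adjusted p of at most 0.0253 in all 30 alternatives. The cortex effect was -0.54 ± 0.23, and the difference of -1.94 (95% interval -2.66 to -1.23) had an adjusted p of 0.111, between 0.00019 and 0.66 over the alternatives, of which 2 of 30 passed.

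**Figure D2:**
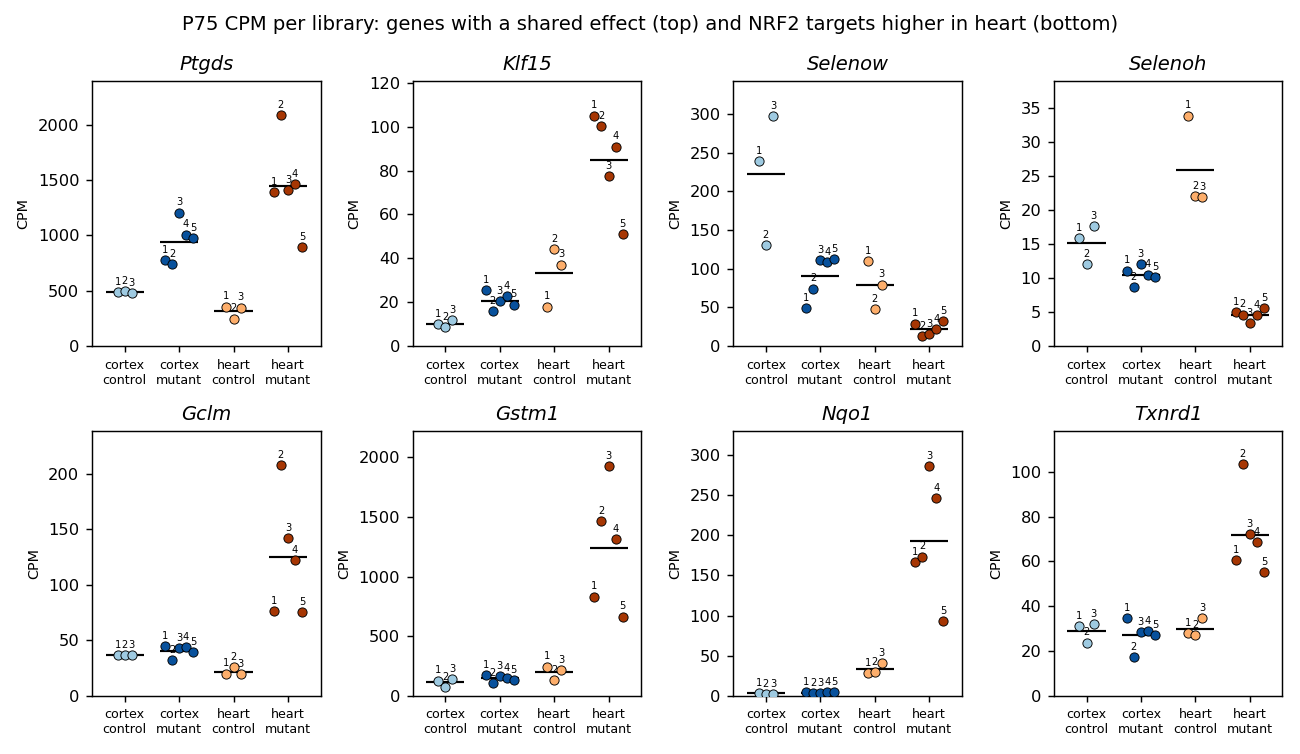
CPM (y axis) of 8 genes in each of the 16 libraries, grouped by tissue and genotype on the x axis, with the replicate number beside each point and the group mean as a line. The 4 genes of the top row separate mutants from controls in both tissues apart from Selenoh in cortex, and the 4 genes of the bottom row separate them in heart only.

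The selenoproteins as a group showed no common direction. Over the 20 expressed in both tissues, Selenow and Selenoh among them, the median log2 fold change was 0.08 in heart and -0.08 in cortex. At an unadjusted p under 0.05, 3 were higher and 4 lower in heart (4% and 7.66% of all genes). In each tissue 3 moved in the same direction at that level (0.256% of all genes): Selenow, Selenoh and Gpx1. Gpx1, the cytosolic glutathione peroxidase, had log2 fold changes of -1.004 ± 0.40 in heart and -0.93 ± 0.40 in cortex, and its difference of -0.07 had an interval of -1.29 to 1.15. It did not pass in either tissue, and heart mutant 2, at 297 CPM, lay within the control range of 150 to 358 CPM while the other 4 mutants had 70.7 to 111 CPM. Txnrd1, the cytosolic thioredoxin reductase, was the only selenoprotein to rise past the threshold in heart and is described with the NRF2 targets. Selenop, which encodes the plasma selenium carrier, had 176 to 209 CPM in mutant cortex against 104 to 154 CPM in control cortex, while the heart groups overlapped, and its difference was -1.09 ± 0.38 (adjusted p = 0.637). Sepsecs (chr5:52640087-52669708) stood at 2.59 to 10.5 CPM in mutant hearts against 6.08 to 10.4 CPM in control hearts and at 3.15 to 10.8 CPM in mutant cortex against 4.89 to 6.69 CPM in control cortex, and its effects did not pass in either tissue. Gpx4 (chr10:80047166-80056439) had effects of -0.08 ± 0.46 in heart and 0.65 ± 0.49 in cortex, and its groups overlapped in both tissues. A 3′ tag reads the amount of these mRNAs and not their missense or U/C alleles, so it does not check the genotypes. Of the 13 genes of the selenocysteine machinery, 0 had an unadjusted p under 0.05 in either tissue or for the difference (6.23% of all genes for the difference).

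Targets of NRF2 were higher in mutant heart and near their control level in mutant cortex. Of 27 targets expressed in both tissues, 7 rose in heart past the threshold (0.149% of all such genes rose and 0.306% passed in either direction). At an unadjusted p under 0.05, 15 were higher and 1 lower (4% and 7.66% of all), and in 11 every mutant heart lay above every control heart (2.05% of all such genes). In cortex 0 were higher and 1 was lower at an unadjusted p under 0.05 (2.35% and 0.96% of all), and 0 had mutants above all controls (2.33%). The median log2 fold change was 0.81 in heart and 0.14 in cortex. The difference of effects had an unadjusted p under 0.05 for 13 of 27 (48.1% against 6.23% of all), each with the heart effect higher, and 0 passed the threshold. The median difference of 1.01 lay between 0.91 and 1.29 in the 30 alternatives, and per library the list stood 0.66 to 1.60 log2 units above the control mean in each of the 5 mutant hearts.

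NRF2 binds the antioxidant response element, for which the letters TGACNNNGC were searched on both strands in the 250 bases before the RefSeq start site (build GRCm38.p6). Of 32851 promoters in that table, 10.2% hold a match, and a match is a description of these letters only. Gclm and 1 of the 3 start sites of Txnrd1 hold one, shown in capitals because both genes rose in heart with cortex effects near 0. Among the other genes described below, Pir also holds a match. For Nqo1, Gstm1, Gsta1, Gsta2, Cat, Fth1, Ephx1 and Aox1 these letters are not in the window. Counted per gene, a match is held by 14.2% of 9333 genes expressed in both tissues and by 6 of 22 NRF2 targets among them (27.3%).
Gclm, chr3:122245307-122245556, plus strand: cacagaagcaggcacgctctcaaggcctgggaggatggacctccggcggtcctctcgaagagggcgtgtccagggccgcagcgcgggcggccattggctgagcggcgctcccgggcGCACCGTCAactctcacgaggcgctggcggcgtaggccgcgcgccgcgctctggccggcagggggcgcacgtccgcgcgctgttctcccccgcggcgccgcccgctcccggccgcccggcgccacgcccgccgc
Txnrd1, chr10:82858956-82859205, plus strand: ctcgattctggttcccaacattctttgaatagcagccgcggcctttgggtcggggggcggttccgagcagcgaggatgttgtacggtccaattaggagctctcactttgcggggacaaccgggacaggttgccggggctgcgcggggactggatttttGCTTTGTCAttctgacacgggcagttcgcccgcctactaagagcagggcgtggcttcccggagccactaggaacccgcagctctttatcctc

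Gclm, the modifier subunit of the enzyme that limits glutathione synthesis (chr3:122245557-122270732), stood at 20, 25.8 and 19.3 CPM in control hearts and at 76.4, 208, 142, 123 and 75.6 CPM in mutant hearts. In cortex it stood at 36.4, 36.9 and 37 CPM in controls and at 45, 32.1, 42.7, 44 and 39.3 CPM in mutants. The lowest mutant heart thus lay well above the highest control heart, while the cortex groups overlapped. The log2 fold change was 2.52 ± 0.32 in heart (adjusted p = 0.00184) and 0.14 ± 0.28 in cortex, and the difference of 2.38 (95% interval 1.52 to 3.23) had an adjusted p of 0.111, which passed in 3 of 30 alternatives. Nqo1, a quinone reductase, stood at 27.8, 29.9 and 40.8 CPM in control hearts and at 167, 174, 286, 247 and 93.1 CPM in mutant hearts, against 2.44 to 4.99 CPM in all cortex libraries. Its effects were 2.55 ± 0.33 in heart and 0.48 ± 0.36 in cortex. Gstm1, a glutathione transferase, stood at 244, 131 and 216 CPM in control hearts and at 832, 1463, 1930, 1315 and 665 CPM in mutant hearts, and at 74.5 to 173 CPM over the 8 cortex libraries. Its effects were 2.65 ± 0.37 and 0.36 ± 0.33, and reads of near-identical Gstm family members could be split between copies. Txnrd1 (chr10:82833951-82897712) stood at 28.1, 27.1 and 34.5 CPM in control hearts and at 60.6, 103, 72.1, 68.6 and 55.3 CPM in mutant hearts, with 17.4 to 34.7 CPM in cortex. Its difference of 1.35 (95% interval 0.62 to 2.08) had an adjusted p of 0.322. The heart effects of Gstm1 and Nqo1 passed in 28 of 30 alternatives and that of Gclm in 29, and that of Txnrd1 in 14.

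The same pattern held for Gsta4, which conjugates the lipid peroxidation product hydroxynonenal, with 200 to 295 CPM in mutant hearts against 30.9 to 67.1 CPM in control hearts. Its log2 fold change was 2.18 ± 0.29 in heart and 0.39 ± 0.28 in cortex. Cat, which encodes catalase, rose by 1.57 ± 0.29 in heart, where every mutant lay above every control, and had an effect of 0.10 ± 0.28 in cortex. Ephx1, an epoxide hydrolase, rose by 1.73 ± 0.32 in heart. Gsta1 and Gsta2, expressed in heart alone, rose by 5.68 ± 0.91 and 5.58 ± 0.77, and these near-identical transferases may share reads. Pir and Aox1, chosen here after their values were seen and not on the list, rose by 2.79 ± 0.51 and 2.03 ± 0.38 in heart with effects of -0.03 and 0.53 in cortex. Fth1, the ferritin heavy chain, stood at 3400 to 7904 CPM in mutant hearts against 875 to 2261 CPM in control hearts, an effect of 1.72 ± 0.39 that did not pass (adjusted p = 0.0697). Other targets had a negative log2 fold change in heart that did not pass, -1.39 for Hmox1, which encodes heme oxygenase, and -2.02 for the pentose phosphate enzyme gene Tkt. For both, heart control 1 stood apart, at 146 CPM against 5.21 and 5.88 CPM in the other control hearts for Hmox1 and at 533 CPM against 18.2 and 24 CPM for Tkt.

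Among the genes called lower in heart were Sez6l2, Ift122, Fgd2 and Lama4, whose cortex effects were small or positive. Sez6l2, known from neurons (chr7:126950563-126970606), stood at 8.1, 10.2 and 9.99 CPM in control hearts and at 2.41, 2.02, 2.44, 4.29 and 3.08 CPM in mutant hearts. Its level in cortex was far higher, 146 to 182 CPM in controls and 166 to 187 CPM in mutants. The effects were -1.71 ± 0.23 in heart (adjusted p = 0.00184) and 0.11 ± 0.20 in cortex, and the difference of -1.82 (95% interval -2.46 to -1.18) had an adjusted p of 0.111 and passed in 3 of 30 alternatives. Excitatory neuron markers summed to 229 to 363 CPM in control hearts and 198 to 254 CPM in mutant hearts, with 0 of 20 at 0 in all libraries of a group. Of these markers, 2 of 13 expressed in both tissues were lower in heart at an unadjusted p under 0.05 (7.66% of all genes). Their part in the Sez6l2 result was not tested. Ift122, a component of ciliary transport, fell in heart from 60.8, 45 and 26.7 CPM to 8.97, 13, 4.68, 8.15 and 8.98 CPM, an effect of -2.34 ± 0.32, and stood at 15 to 32.1 CPM over all cortex libraries. Fgd2, a guanine nucleotide exchange factor for CDC42, fell by 1.99 ± 0.38 in heart and had an effect of 0.68 ± 0.38 in cortex. Lama4, a laminin chain of vessel walls, was 33 to 43.5 CPM in mutant hearts against 153, 129 and 54 CPM in control hearts, an effect of -1.50 ± 0.27 that passed in 18 of 30 alternatives and was -0.47 without the Ccdc36 libraries.

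Cell cycle genes were lower in mutant heart. Of 17 expressed in both tissues, 2 fell past the threshold, Top2a and Tpx2 (0.157% of all genes fell), and 9 were lower and 0 higher at an unadjusted p under 0.05 in heart (7.66% of all genes were lower at that level). In cortex 1 was higher and 0 were lower (2.35% and 0.96% of all genes). The median effect was -0.98 in heart and -0.0032 in cortex, where its sign changed over the alternatives. Top2a, the DNA topoisomerase of dividing cells, stood at 16.8, 17.4 and 6.73 CPM in control hearts and at 1.53, 3.74, 2.81, 0.643 and 0.898 CPM in mutant hearts, an effect of -2.86 ± 0.50 against -0.54 ± 0.52 in cortex. The heart effect passed in 22 of 30 alternatives for Top2a and in 7 of 28 for Tpx2. The median difference of the list, -1.05, lay between -1.35 and -0.40 in the 30 alternatives, the last without the libraries numbered 2. E2f1 and Pclaf, chosen after their values were seen, fell by 2.46 ± 0.49 and 3.77 ± 0.75 in heart. They passed in 12 and 9 of 29 alternatives, and E2f1 had an effect of -0.96 without the Ccdc36 libraries.

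Interferon-stimulated genes leaned in opposite directions. Of 44 expressed in both tissues, 11 were lower and 0 higher in mutant heart at an unadjusted p under 0.05, and 19 were higher and 0 lower in mutant cortex (7.66% and 2.35% of all genes). The median log2 fold change was -0.57 in heart and 0.89 in cortex. The difference had an unadjusted p under 0.05 for 26 of 44 (59.1% against 6.23% of all), each with the cortex effect higher. The single gene past a threshold was Bst2 in heart, an effect of -3.72 that rested on heart control 1 with 581 CPM and was -0.33 at its smallest over the alternatives. An opposite sign with an unadjusted p under 0.05 in each tissue was seen for 5 of the 44, against 37 of all 12087 genes (0.306%). Of those 37, 28 were lower in heart and higher in cortex (0.232%), and 9 the reverse (0.0745%).

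The interferon-stimulated response element, searched as GAAA, any 2 bases and GAAA again on both strands of the same windows, is held by 2.98% of the 32851 promoters. It is shown in capitals for 3 interferon-stimulated genes with a lower heart and a higher cortex value, where overlapping matches run together in Isg15. Bst2 also holds a match. For Ifi44, Lgals3bp, H2-D1 and Tap1 these letters are not in the window. Counted per gene, a match is held by 3.0% of 9333 genes expressed in both tissues and by 16 of 33 interferon-stimulated genes among them (48.5%).
Ifit3b, chr19:34607707-34607956, plus strand: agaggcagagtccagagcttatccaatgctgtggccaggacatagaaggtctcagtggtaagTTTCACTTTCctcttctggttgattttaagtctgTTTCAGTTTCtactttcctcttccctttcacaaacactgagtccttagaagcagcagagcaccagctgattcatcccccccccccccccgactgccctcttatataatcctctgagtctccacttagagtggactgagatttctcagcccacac
Rsad2, chr12:26456453-26456702, minus strand: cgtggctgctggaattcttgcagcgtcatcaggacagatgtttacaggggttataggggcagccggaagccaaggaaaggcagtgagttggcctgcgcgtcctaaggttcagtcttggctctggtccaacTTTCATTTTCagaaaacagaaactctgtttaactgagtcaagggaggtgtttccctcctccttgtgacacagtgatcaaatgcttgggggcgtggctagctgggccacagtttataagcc
Isg15, chr4:156200819-156201068, minus strand: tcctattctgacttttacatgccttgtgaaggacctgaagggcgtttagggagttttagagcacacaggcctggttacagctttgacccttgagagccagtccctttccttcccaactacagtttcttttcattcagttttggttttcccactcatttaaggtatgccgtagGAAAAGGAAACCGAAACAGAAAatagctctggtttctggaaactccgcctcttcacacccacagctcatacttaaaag

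Ifi44, an interferon-induced gene (chr3:151730922-151749960), stood at 10.4, 9.97 and 16.3 CPM in control hearts and at 4.38, 2.3, 5.25, 2.36 and 4.1 CPM in mutant hearts. In cortex it stood at 1.25, 0.489 and 1.06 CPM in controls and at 1.72, 2.94, 1.83, 7.21 and 5.46 CPM in mutants. All mutants lay below the controls in heart and above them in cortex, with the highest cortex values in mutants 4 and 5. The effects of -1.71 ± 0.45 and 1.97 ± 0.55 differed by -3.68 (95% interval -5.17 to -2.19), and the adjusted p of 0.167 ranged from 0.00178 to 0.742 over the alternatives. Rsad2, the antiviral enzyme viperin, stood at 127, 106 and 77.1 CPM in control hearts and at 22.1, 63.6, 43.8, 31.1 and 25 CPM in mutant hearts. In cortex it stood at 6.79, 3.42 and 4.46 CPM in controls and at 5.15, 5.88, 10.4, 21.5 and 16.7 CPM in mutants, and there the groups overlapped through mutants 1 and 2. Ifit3b, whose reads may be shared with its copy Ifit3, had effects of -1.57 ± 0.52 and 1.80 ± 0.53. Isg15, a ubiquitin-like protein, had a log2 fold change of -2.95 in heart, where heart control 1 had 93.7 CPM and the other controls 8.69 and 13.7 CPM, and of 1.18 in cortex. None of these genes passed for a tissue or for the difference.

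Genes of MHC class I antigen presentation followed the same division. Of 15 expressed in both tissues, 4 were lower in heart and 5 higher in cortex at an unadjusted p under 0.05 (7.66% and 2.35% of all genes). The medians were -0.51 and 0.54, and the difference reached that level for 9 (60% against 6.23% of all). H2-D1, a class I heavy chain with near-identical family members, stood at 145, 195 and 153 CPM in control hearts and at 107, 147, 110, 74.4 and 112 CPM in mutant hearts, of which mutant 2 lay within the control range. In cortex it stood at 48.8, 27.4 and 33.3 CPM in controls and at 51.4, 71, 57.6, 108 and 94.4 CPM in mutants, all above the controls. Its effects of -0.58 ± 0.27 and 1.06 ± 0.29 did not pass. Of 7 MHC class II genes, 2 were lower in heart at an unadjusted p under 0.05 (7.66% of all genes). In cortex 0 reached that level (2.35% of all genes were higher and 0.96% lower).

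**Figure D3:**
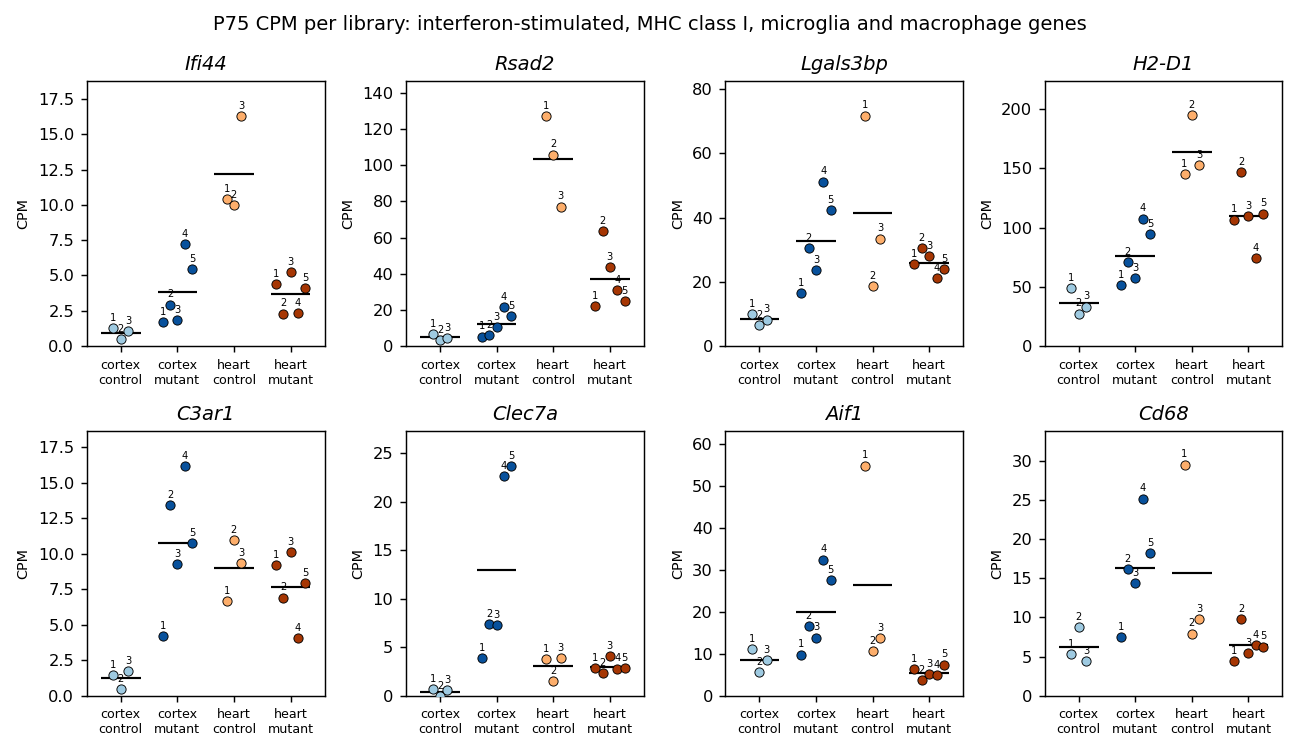
CPM (y axis) of 8 interferon, MHC class I, complement receptor and myeloid genes in each of the 16 libraries, by group on the x axis, with replicate numbers beside the points and group means as lines. Cortex mutants 4 and 5 have the highest cortex values for 7 of the 8 genes, and heart control 1 has the highest heart value for Rsad2, Lgals3bp, Aif1 and Cd68.

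Microglial genes were higher in mutant cortex, and several of them lower in mutant heart, where resident macrophages express many of the same genes. C3ar1, the receptor for complement fragment C3a (chr6:122847138-122856161), and Clec7a, the receptor dectin-1 (chr6:129461591-129472779), rose in cortex (0.0165% of all genes expressed in both tissues) and did not pass in heart. C3ar1 stood at 1.43, 0.489 and 1.76 CPM in control cortex and at 4.21, 13.4, 9.26, 16.2 and 10.7 CPM in mutant cortex, against 6.65 to 11 CPM in control hearts and 4.07 to 10.1 CPM in mutant hearts. Its effect was 3.03 ± 0.48 in cortex (adjusted p = 0.0288) and -0.23 ± 0.40 in heart, and the difference of -3.26 (95% interval -4.56 to -1.96) had an adjusted p of 0.167. Clec7a stood at 0.715, 0 and 0.587 CPM in control cortex and at 3.9, 7.35, 7.31, 22.6 and 23.6 CPM in mutant cortex, against 1.53 to 4.12 CPM over all hearts. Its effect was 4.70 ± 0.73 in cortex (adjusted p = 0.0288) and -0.04 ± 0.60 in heart, with a fold that depends on the near-absent control level. The difference passed for C3ar1 and for Clec7a in 3 of 30 alternatives each. With the replicate number as a block, the cortex effects were 2.66 (adjusted p = 0.854) and 3.63 (adjusted p = 0.563). Cst7 and Gfap also rose in cortex, by 6.30 ± 0.96 and 3.10 ± 0.50, and were not expressed at 1 CPM in heart. The fold of Cst7, like that of Clec7a, depends on a near-absent control level. The cortex effects of Cst7 and Gfap passed in 21 and 15 of 30 alternatives, and those of C3ar1 and Clec7a in 17 and 19. Gfap, the astrocyte filament gene, stood at 15.6 to 29.2 CPM in control and 58.5 to 282 CPM in mutant cortex.

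Of 19 microglia markers expressed in both tissues, 9 were higher in cortex and 5 lower in heart at an unadjusted p under 0.05 (2.35% and 7.66% of all genes). The medians were 0.94 in cortex and -0.53 in heart. The difference reached that level for 12 (63.2% against 6.23% of all), each with the cortex effect higher. Opposite signs at that level in each tissue were seen for 3 (0.306% of all genes): Aif1, Csf1r and Fcrls. Aif1, which encodes the microglial and macrophage protein IBA1, stood at 55, 10.7 and 13.7 CPM in control hearts and at 6.35, 3.74, 5.25, 4.93 and 7.44 CPM in mutant hearts. In cortex it stood at 11.1, 5.62 and 8.56 CPM in controls and at 9.83, 16.6, 13.9, 32.5 and 27.6 CPM in mutants. Its effects of -2.22 ± 0.48 and 1.24 ± 0.50 did not pass, and the difference of -3.47 (95% interval -4.94 to -1.99) had an adjusted p of 0.202. Cd68, a lysosomal protein of phagocytes, had effects of -1.28 ± 0.43 and 1.41 ± 0.45, with 29.5 CPM in heart control 1 against 7.92 and 9.77 CPM in the other control hearts. Among genes of disease-associated microglia the heart median was 0.12 and the cortex median 1.04. Among complement genes these were 0.02 and 0.91. C3ar1 was the complement gene that passed in cortex, and C1qc (effect 1.80 ± 0.33 in cortex and -0.20 ± 0.30 in heart) and C1qb (1.88 ± 0.39 and -0.42 ± 0.36) did not pass.

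The libraries that stood apart moved with these lists. Without heart control 1, the median heart effect became -0.10 for microglia markers and -0.39 for interferon-stimulated genes. Without cortex mutants 4 and 5, the median cortex effect became 0.38 for interferon-stimulated genes, 0.56 for microglia markers and 0.25 for MHC class I genes. With the replicate number as a block it became 0.38, 0.64 and 0.28. That block also leaves cortex mutants 4 and 5 out of the effect, so these settings are not separate checks. The median difference of the 3 lists was negative in all 30 alternatives. Macrophage markers summed to 655 to 1688 CPM in control hearts and to 543 to 1264 CPM in mutant hearts, and to 174 to 249 CPM in control and 245 to 630 CPM in mutant cortex. Of the 14 expressed in both tissues, 2 were lower in heart (7.66% of all genes) and 7 higher in cortex (2.35% of all genes) at an unadjusted p under 0.05, and Timd4 was at 0 in all control cortices. Choroid plexus markers summed to 177 to 287 CPM in control and 178 to 1771 CPM in mutant cortex. In cortex 3 of 5 expressed in both tissues were higher at that level (2.35% of all genes), and Slc4a5 was at 0 in all control cortices. Their part in the result was not tested.

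**Figure D4:**
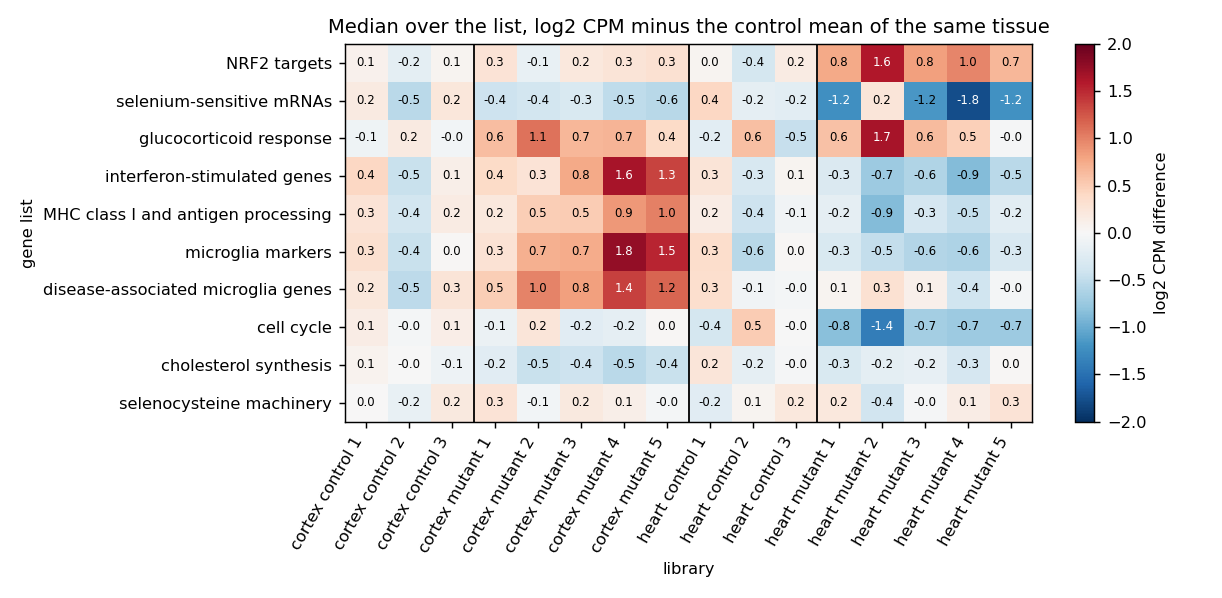
Each cell gives the median over a gene list (rows) of the log2 CPM of 1 library (columns) minus the mean of the control libraries of the same tissue, red for higher and blue for lower. NRF2 targets are at 0.66 to 1.60 in the 5 mutant hearts. Interferon-stimulated genes are at 0.28 to 1.65 in the mutant cortices against -0.45 to 0.41 in the control cortices. They are at -0.28 to -0.87 in the mutant hearts against -0.32 to 0.26 in the control hearts, so the groups overlap in both tissues.

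Opposite effects with the heart higher involved fewer genes. Itgb1bp1, an integrin-binding protein, stood at 25.7, 34.5 and 36.5 CPM in control hearts and at 56.7, 59, 70.3, 62 and 41.3 CPM in mutant hearts. In cortex it stood at 25.2, 30.8 and 23.8 CPM in controls and at 20, 18.7, 17.4, 19.1 and 20.2 CPM in mutants. The groups were apart in both tissues, in opposite directions, with effects of 0.84 ± 0.21 and -0.48 ± 0.20 and an adjusted p of 0.216 for the difference. Kcnip2, a subunit of the channel that carries the cardiac transient outward potassium current, had effects of 0.84 ± 0.34 and -0.86 ± 0.32, with 59.6 to 98.4 CPM in mutant against 97 to 160 CPM in control cortex. Stk26 and Shb had heart effects of 1.84 and 0.55 and cortex effects of -1.53 and -0.55. Strn and C1qtnf12 came closest to a cortex-limited fall, at -0.98 ± 0.28 and -0.93 ± 0.26 in cortex against 0.65 and 0.24 in heart. Striatal neuron markers moved with Strn in cortex: cortex mutant 2, with 79.1 CPM of Strn against 40.2 to 48.4 CPM in the other mutants, had a striatal marker median 0.11 log2 units above the control mean, against -3.13 to -1.32 in the others. Their part in the result was not tested. None of these 6 genes passed. Every mutant lay below every control in heart (2.52% of all genes) and above every control in cortex for 13 genes (0.108%), and the reverse held for 3 (0.0248%). Mutants lay above all controls in both tissues for 14 genes (0.116%) and below them in both for 7 (0.0579%).

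Of the 12087 genes, 31 had the same sign and an unadjusted p under 0.05 in each tissue (0.256%), 19 higher (0.157%) and 12 lower (0.0993%), the 4 shared genes among them. Apln, the vascular peptide apelin, passed for the mean effect (adjusted p = 0.0473) and fell in heart to 0.288 to 7 CPM from 19.2 to 36.7 CPM, while its cortex effect of -0.81 ± 0.42 was not below that level. Slc2a1, the glucose transporter GLUT1, rose by 1.24 ± 0.25 in heart and had an effect of 0.52 ± 0.22 in cortex, and the linker histone gene Hist1h1c by 1.69 ± 0.34 and 0.73 ± 0.32, with mutants above all controls in both tissues for each. Genes induced by glucocorticoids had medians of 0.56 in heart and 0.64 in cortex over 19 genes, with 1 higher in heart (4% of all genes) and 3 higher in cortex (2.35%) at an unadjusted p under 0.05. The difference was at that level for 1 of 19 (5.26% against 6.23% of all), near the general share. Their heart values varied with the libraries numbered 2: Fkbp5, an inhibitor of the glucocorticoid receptor, had 147 CPM in heart control 2 against 10.1 and 12.8 CPM in the other control hearts. Genes of cholesterol synthesis had medians of -0.33 in heart and -0.46 in cortex over 23 genes, and in 6 of them every mutant cortex lay below every control cortex (1.7% of all genes).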

How the data were processed

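The authors deposited raw counts, 1 per gene (Ensembl ID) in each library, from QuantSeq 3′ mRNA libraries. Per the submitters' processing notes, STAR and build GRCm38 were used, while the sources used here give no STAR version, no counter and no collapsing of duplicate tags. Of 55416 gene IDs, 52083 matched a symbol in GENCODE M21. Replicates are mice per the series' design text.

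The 16 libraries were fitted together with edgeR 4.0.16 (R 4.3.3), with 1 mean per group, filterByExpr, TMM factors and the quasi-likelihood F test. The contrasts were the effect in each tissue, their difference and their mean. All 14814 tested genes entered the Benjamini-Hochberg adjustment of each contrast. A standard error is |log2 fold change| over the root of its F statistic. CPM carry the TMM factors, and the prior count for log2 CPM was 2. The script was tested on simulated data. Alternatives were other normalizations, filters and expression minimums, DESeq2 1.42.0, limma-voom 3.58.1 with sample weights, replicate blocks, an Xist covariate, each tissue alone, each library left out and the libraries that stood apart left out.

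The members, gene lists and tests were chosen with earlier results of these data known. Named were Sepsecs, Gpx4 and the selenoproteins, then up to 8 genes per class by the smallest p. Where a class was empty, the 5 genes per direction closest to it were taken, and these did not pass for the difference. One gene that this rule named is not reported here. No list held a gene that passed for the difference, so genes from lists, and genes called in 1 tissue or for the mean, were named after their values were seen. Genes with clone names were not named, apart from Gm34302, and sex-linked genes only as a library check. Lists were described by counts and medians, with no test.

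Whether same-numbered libraries pair was checked from deviations from the group means. They correlated at 0.284 to 0.683 between control and mutant cortex, above 0.1 for every number, at -0.143 to 0.280 in heart, and at -0.0757 to 0.451 between cortex and heart. Same-numbered libraries thus resembled each other for every number in cortex, and for some numbers only in heart and between the tissues. Number 1 was female and number 2 had high Ccdc36 in every group, so these correlations cannot establish or exclude a pairing, and no label states one. Cortex mutants 4 and 5 have no control of their number. The 12 libraries from newborn mice were not used.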

Additional observations from a re-analysis of the deposited data

Results flagged for a closer look

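Among the named genes, 312 groups of 5 mutant libraries were looked at for a library far from the other 4, and 16 were found. Chance gives about 1 in 20 such groups. Of the 16, 12 lay in a library numbered 2. In heart mutant 2, the low values were Gfap 0 CPM, Aox1 20.2 CPM, Selenot 13.8 CPM, Selenon 2.3 CPM and Selenof 8.64 CPM, and the high value was Bst2 28.5 CPM. In cortex mutant 2, the low values were Gsta4 13.6 CPM, Htatip2 5.04 CPM, Selenok 121 CPM, Selenof 41.6 CPM and Txnrd3 1.89 CPM, and the high value was Strn 79.1 CPM. In the other libraries, Htatip2 was low at 31.7 CPM in heart mutant 5, Gpx3 was high at 6.94 CPM in cortex mutant 5, and single tags gave Edn3 0.187 CPM in heart mutant 3 and Gsta1 0.165 CPM in cortex mutant 5.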

How the results depend on the processing

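Counts of genes past an adjusted p of 0.05 are given here for cortex, heart, the difference, and the shared, opposite, heart-limited and cortex-limited classes, which edgeR put at 5, 42, 0, 4, 0, 0 and 0. DESeq2 gave 21, 224, 58, 23, 21, 23 and 8. No count filter gave 15, 135, 14, 9, 7, 4 and 3. Limma-voom with sample weights gave 151, 32, 2, 12, 1, 1 and 0. A term for the 5 libraries with high Ccdc36 gave 12, 139, 37, 41, 11, 21 and 2, and leaving these libraries out gave 20, 34, 4, 12, 3, 1 and 0, where the 1 remaining heart control was assumed to vary like the other groups. Leaving out the libraries numbered 2 gave 3 in cortex, 604 in heart and 12 shared, and leaving out cortex mutants 4 and 5 gave 0, 10 and 1. An Xist covariate gave 2 in cortex, and each tissue alone gave 0 in cortex and 2 in heart. The Ccdc36 settings and the one without cortex mutants 4 and 5 were chosen after seeing the data. Leaving out 1 library gave 0 to 13 in cortex, 14 to 202 in heart, 0 to 1 for the difference, 1 to 9 shared and 0 to 1 heart-limited, with 0 opposite and 0 cortex-limited. Other size factors, a mean count filter, a higher expression minimum, TMM within each tissue and leaving out haemoglobin and mitochondrial genes moved no count by over 1.5 times.

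With the replicate number within tissue as a block, the counts were 0 in cortex, 16 in heart and 0 shared, and the adjusted p of the mean effect was 0.0965 for Ptgds, 0.0827 for Selenoh and Selenow and 0.246 for Klf15. Same-numbered libraries correlated above 0.1 for every number in cortex alone, where the block ended every call. The block also takes mutants 4 and 5 of each tissue out of the effects, since no control has their number. Leaving out cortex mutants 4 and 5 with no block gave 0 calls in cortex too. The lost calls therefore cannot tell a pairing from the loss of these libraries. With a block for the mouse that a number would mark across tissues, which allows the difference only, 0 genes passed.

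The direction reversed for the difference of Gpx4, to 0.094 in limma-voom, 0.34 without the Ccdc36 libraries and 0.057 without heart control 1, with a range of -1.14 to 0.057 over the libraries left out singly. It reversed for Ccdc85b, to a heart effect of 0.10 and a difference of 0.44 without the Ccdc36 libraries and a difference of 0.051 without heart control 1, with a range of -4.48 to 0.051 for that difference. Of 153 effects and differences of named genes recomputed under the alternatives, the other 150 kept their direction wherever they had a value. Gpx1, Hmox1, Tkt, Serpina3n and some other genes named from lists were not recomputed. The causes were not tested. Depth limits genes near 1 CPM, where a library of 2997738 counts holds few tags.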

Other observations

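Some stress genes of heart muscle and of glia had high values in a few mutant libraries. Tnni1, the slow skeletal troponin of the fetal heart, stood at 0.579, 1.28 and 0.217 CPM in control hearts and at 5.47, 2.88, 1.31, 1.5 and 7.82 CPM in mutant hearts, an effect of 2.47 ± 0.67 that did not pass, against -0.21 ± 0.52 in cortex. Atrial markers moved with it: per library their median stood 1.70, 2.10 and 2.28 log2 units above the control mean in heart mutants 1, 2 and 5, where Tnni1 was highest, and at -0.62 and -0.51 in heart mutants 3 and 4. Control hearts spread from -0.97 to 1.52, and the part of atrial tissue in the result was not tested. Myh7, the slow myosin heavy chain, stood at 20.2 to 36.7 CPM in control and 30.9 to 89.7 CPM in mutant hearts, with overlapping groups. Of 13 genes of cardiac stress expressed in both tissues, 3 were higher and 0 lower in heart (4% and 7.66% of all genes) and 1 was higher and 1 lower in cortex (2.35% and 0.96%) at an unadjusted p under 0.05. Of 21 genes of reactive astrocytes, 2 were higher and 1 lower in heart at that level (4% and 7.66% of all genes), near the general share. In cortex 8 of them were higher and 0 lower (2.35% and 0.96%). Their medians were 0.35 in heart and 0.82 in cortex, and the difference was at that level for 1 of 21 (4.76% against 6.23% of all). Serpina3n, an acute-phase protease inhibitor, had an unadjusted p under 0.05 in the same direction in both tissues, at 3.76 in heart and 3.08 in cortex (log2 fold change), and it did not pass for the mean effect. Its heart value rested on heart mutant 2, with 137 CPM against 0.937 to 6.67 CPM in the other mutant hearts and 2.03 to 2.39 CPM in control hearts.

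Sparc, a matrix protein of vessels and glia, had effects of -1.64 ± 0.37 in heart and 0.86 ± 0.39 in cortex. Control hearts had 3226, 1453 and 1183 CPM and mutant hearts 501, 926, 523, 550 and 636 CPM, with the highest value in heart control 1. The difference of -2.49 had an adjusted p of 0.216 and passed in 5 of 30 alternatives.

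Cardiomyocyte markers in cortex had a median log2 fold change of 1.97, with 12 of 24 higher and 1 lower at an unadjusted p under 0.05 (2.35% and 0.96% of all genes). Per library their median lay 0.62, -0.05, -0.27, 1.11 and 3.16 log2 units from the control mean in cortex mutants 1 to 5. It lay at -0.12 to 0.16 in the control cortices, and the rise was thus uneven over the mutants. Their summed level was 491 to 1411 CPM in mutant and 538 to 848 CPM in control cortex. Striatal neuron markers in cortex had a median of -1.36, with 6 of 8 lower at an unadjusted p under 0.05 (0.96% of all genes). They summed to 298 to 2782 CPM in mutant and 1775 to 4091 CPM in control cortex.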
